A study of Mus musculus with 4 samples.

Results

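Chromatin remodelling complexes and the corepressor complexes that carry histone deacetylases (HDACs) were followed in total RNA of EO771 cells, a mammary carcinoma line from C57BL/6 mice. The members were the genes of the counts table whose symbols name subunits of the BAF, ISWI, CHD, INO80, NuRD, NCoR, CoREST and SIN3 complexes or belong to the same gene families. These were 63 of 56350 listed genes, of which 60 had enough counts to be tested. The series compares 2 libraries labelled untreated with 2 libraries of cells labelled as cultured for 48 h with 1.0 µM BML-210, an HDAC inhibitor. The untreated libraries carry WT in their titles, where the others carry BML-210, and their cells are also described as having received vehicle. All 4 are of 1 cell line, and nothing in the labels says that the replicates came from separate cultures. The p-values therefore measure only the spread between these libraries, which may be technical.

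Remodelling complexes use the energy of ATP to slide, eject or exchange nucleosomes, and each is built around an ATPase of the SNF2 family. The BAF complexes, the mammalian form of yeast SWI/SNF, open chromatin at promoters and enhancers, and several of their subunits are tumour suppressors that are often mutated in cancer. NuRD couples an ATPase of the CHD family to the deacetylases HDAC1 and HDAC2, SIN3 and CoREST also carry HDAC1 and HDAC2, and NCoR carries HDAC3. BML-210 acts on the deacetylases themselves. Of the genes described here, those of NuRD, SIN3, CoREST and NCoR encode other subunits of complexes that carry such enzymes. The genes of BAF, ISWI, INO80 and the other families belong to remodellers not named here as carrying a deacetylase.

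Most changes among the members were small rises. In the libraries labelled BML-210, 35 of the 60 tested members were higher, 2 were lower and 23 were not called (edgeR quasi-likelihood test, adjusted p below 0.05). Over all 14455 tested genes, 46.4% were called, 22.9% as higher and 23.5% as lower. The members' share called in either direction, 61.7%, was thus above that of all genes, but it was not above the 62.6% of the 2369 tested genes at least as long as the median tested member, or the 72.1% of the 2512 genes at least as abundant. The split by direction differed more. Of the members 58.3% were higher and 3.33% lower, against 33.7% and 28.9% of the genes as long, and 46.2% and 26.7% of the 996 genes both as long and as abundant. The median log2 fold change was 0.18 over the tested members, -0.002 over all tested genes and 0.07 over the genes both as long and as abundant. These shares describe the lists and were not tested against each other. Counts given below for single complexes are to be read beside the shares of all tested genes and of the genes as long and as abundant. Called changes of 1.5-fold or more were found for 4 members, namely Ino80, Chd3, Smarca2 and the antisense gene Ino80dos (15.1% of all tested genes), and of 2-fold or more for Smarca2 alone (6.68% of all tested genes). The groups did not overlap for 49 of the 60 tested members (81.7%), against 71.3% of all tested genes and 87.8% of the genes both as long and as abundant.

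**Figure D1:**
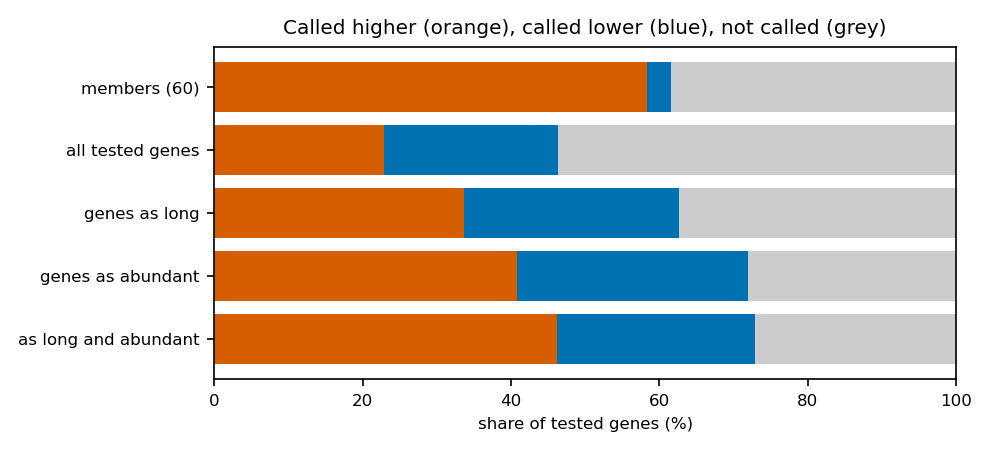
Share of tested genes called higher (orange), called lower (blue) or not called (grey) in the libraries labelled BML-210, for the 60 members, all tested genes, and the genes at least as long, as abundant, or both, as the median tested member. The members have 58.3% higher and 3.33% lower, while the genes as long and abundant have 46.2% and 26.7%.

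Total gene counts ran from 13167893 to 16534667 per library, and the members took 0.656% of them in both libraries labelled untreated and 0.749% and 0.753% in those labelled BML-210. Counts are given below as CPM, the count scaled to library size, where 3 counts equal 0.183 to 0.227 CPM. Of the 8 epithelial markers, Krt8 fell, from 43.6 and 49.2 CPM in the libraries labelled untreated to 28.3 and 33.0 CPM (-0.59, edgeR adjusted p = 3.50e-09). Cdh1, at 0.785 to 0.984 CPM, did not pass (-0.07). The other 6 were too low to test, among them Epcam and Krt18, at or near 0 (at most 0.227 CPM) in all 4 libraries. All 10 proliferation markers rose, and their summed level was 1057 to 1101 CPM in the libraries labelled untreated and 1760 to 1763 CPM in those labelled BML-210. Of 4 nuclear transcripts kept as a sign of RNA quality, Malat1 fell (-0.58), Neat1 (0.18) and Kcnq1ot1 (0.78) rose and Meg3 was at or near 0. Of 4 tested fibroblast and endothelial markers, 1 rose and 1 fell, the latter Pdgfra, at 155 and 157 CPM and at 94.3 and 101. The summed level of the nuclear transcripts went from 19097 to 19446 CPM to 14202 to 14215 CPM. The part that these shifts play in the members' values was not tested, and in bulk RNA fewer cells of a kind and less RNA per cell cannot be told apart. The untreated libraries carry the code D and the BML-210 libraries the code V, which does not settle which cells received the compound. An exchange of the groups would turn every direction given here.

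The region before the start of a gene is shown for 4 members that carry the pattern: Ino80 and Arid1a, which rose, Mta1, the member with the highest level per length, and Rcor1, which fell. Each line gives the 250 bases before the RefSeq start (GRCm38.p6, the assembly called mm10 in the submitters' notes), 5′ to 3′ on the gene's strand. The last 16 bases of the Rcor1 window lie after the 5′ end of that gene in the deposited table. Capitals mark matches on either strand to the GC box GGGCGG, the CCAAT box CCAAT, the E-box CACGTG or the ETS motif CCGGAAG.
Ino80 (chr2:119477688-119477937, minus strand): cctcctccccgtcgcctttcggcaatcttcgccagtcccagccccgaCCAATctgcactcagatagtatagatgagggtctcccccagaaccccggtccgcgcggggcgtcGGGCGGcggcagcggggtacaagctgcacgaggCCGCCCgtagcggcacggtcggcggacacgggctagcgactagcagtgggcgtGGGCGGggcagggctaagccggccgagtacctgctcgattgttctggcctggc
Arid1a (chr4:133756770-133757019, minus strand): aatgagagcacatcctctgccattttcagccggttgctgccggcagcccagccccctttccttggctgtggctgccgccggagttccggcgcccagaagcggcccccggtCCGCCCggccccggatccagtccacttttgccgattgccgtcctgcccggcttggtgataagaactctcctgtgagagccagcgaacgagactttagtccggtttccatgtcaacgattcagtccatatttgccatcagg
Mta1 (chr12:113098028-113098277, plus strand): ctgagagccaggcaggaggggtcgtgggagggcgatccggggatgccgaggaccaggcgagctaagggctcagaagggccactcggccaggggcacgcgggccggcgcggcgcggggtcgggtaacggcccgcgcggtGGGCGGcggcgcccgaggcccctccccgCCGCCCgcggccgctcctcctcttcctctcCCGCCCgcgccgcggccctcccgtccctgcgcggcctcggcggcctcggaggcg
Rcor1 (chr12:111039117-111039366, plus strand): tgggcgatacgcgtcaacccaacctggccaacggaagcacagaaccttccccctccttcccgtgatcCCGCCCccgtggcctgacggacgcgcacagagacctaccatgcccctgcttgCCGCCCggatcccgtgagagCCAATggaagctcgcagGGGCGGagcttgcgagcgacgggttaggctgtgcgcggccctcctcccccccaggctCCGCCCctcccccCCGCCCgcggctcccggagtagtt
The 4 sequences share a GC-rich composition, from 61.2% in Arid1a to 80.8% in Mta1. Of the 60 tested members, 39 had a RefSeq start within 500 bases of the 5′ end in the deposited table, and so did 8492 of all tested genes. The median GC content of these windows was 67.2% for the members and 60% for all tested genes. A GC box was found in 33 of the 39 members (84.6%), against 61.2% of all tested genes. It was found in 17 of 21 members that were higher and in 16 of 18 that were not. The E-box was found in 4 of the 21 members that were higher (19%) and 1 of the other 18 (5.56%), against 8.89% of all tested genes, and the CCAAT box in 9 of 21 and 5 of 18, against 37.6%. The ETS motif was found in 1 of 21 and 4 of 18, against 15.4%. The longer motifs searched on both strands, TTTCGCGC for E2F, TGACGTCA for CRE and the palindromic NRF1 motif, were in none of the 39 windows and in 0.542%, 2.99% and 1.84% of all. A match is a description of the letters, and the motifs were not searched for overlap with each other.

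The mRNAs of the BAF complexes split between an unequal pair of ATPases. Smarca4, which encodes the ATPase BRG1, was at 133 CPM in both libraries labelled untreated and at 129 and 127 in those labelled BML-210. It did not pass the test (log2 fold change -0.05 ± 0.04 SE, edgeR adjusted p = 0.311). Its paralogue Smarca2, which encodes the ATPase BRM, was at 3.41 and 2.40 CPM in the libraries labelled untreated and at 1.21 and 1.43 CPM in those labelled BML-210. The counts behind these were 56, 33, 16 and 20. Both libraries labelled BML-210 lay below both labelled untreated, a 2.21-fold lower level (log2 scale: -1.15 ± 0.32 SE, edgeR adjusted p = 0.00251). The call ended without untreated replicate 1 (-0.86, adjusted p = 0.116) and in DESeq2 (adjusted p = 0.061), and the adjusted p ran from 0.000808 to 0.116 over 16 alternatives. Per kilobase of exon, Smarca2 made up 0.814% to 1.15% of the pair in the libraries labelled untreated and 0.424% to 0.509% in those labelled BML-210, so nearly all of this mRNA was that of Smarca4 in every library. Markers of leukocytes were also low. Their 8 genes summed to 11.9 to 14.6 CPM in the libraries labelled untreated and 9.76 to 12.1 in those labelled BML-210. Cd74 had the highest level among them, at 6.94 and 6.19 CPM and at 6.28 and 7.71, and Ptprc was at 0.437 to 0.974 CPM. Of 4 tested, only the macrophage gene Adgre1 was called, and it fell from 2.01 and 0.947 CPM to 0.0757 and 0.285. Cd74 (0.09), Ptprc (0.02) and Lyz2 (-0.40) did not pass. The part of such cells in the fall of Smarca2 was not tested.

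The core subunits around these ATPases moved in 1 direction. All 7 had a positive fitted change, and 5 rose: Smarce1 (0.27), Smarcc1 (0.23), Smarcb1 (0.18), Smarcc2 (0.18) and Smarcd1 (0.18). Smarcc1, a scaffold subunit that dimerises at the base of the complex, was at 161 and 171 CPM in the libraries labelled untreated and at 191 and 198 in those labelled BML-210 (edgeR adjusted p = 1.42e-06). Smarce1, a DNA-binding subunit, went from 66.9 and 71.8 CPM to 85.5 and 81.9 (adjusted p = 2.53e-05). Smarcc2, the paralogue of Smarcc1, went from 86.8 and 85.7 to 98 and 97 CPM (adjusted p = 0.00229), a call that ended in DESeq2. The groups did not overlap for any of these genes. The calls of Smarcb1 and Smarcd1 were less firm, and with all 4 libraries both ended with upper-quartile factors and in DESeq2. For Smarcb1, a tumour suppressor lost in rhabdoid tumours, the call also ended without untreated replicate 1 (0.13, adjusted p = 0.18) and when BML-210 replicate 2 was left out (0.09, adjusted p = 0.415), in a range of 0.00463 to 1 over the alternatives. For Smarcd1 it ended when any of 3 single libraries was left out, with log2 fold changes of 0.15 to 0.19 and adjusted p of 0.0552 to 0.157, so the size of the change hardly moved. Smarcd2 (0.11) and Smarcd3 (0.18) did not pass, and 2466 of the 5120 exonic bases of Smarcd3 overlap Chpf2 on the other strand, whose mean was 32.2 CPM.

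The larger rises in BAF were those of the subunits that define its forms. Arid1b, the ARID subunit of canonical BAF that replaces ARID1A, was at 77.7 and 82.6 CPM in the libraries labelled untreated and at 118 and 117 in those labelled BML-210, a rise of 0.55 ± 0.05 on the log2 scale (SE, edgeR adjusted p = 1.06e-14). Arid1a (chromosome 4, 133679008 to 133756769), which encodes the more often mutated of the pair, went from 148 and 144 to 199 and 203 CPM (0.46 ± 0.04, adjusted p = 3.55e-15). The groups of both genes were well apart. In PBAF, the form that contains polybromo, Pbrm1 went from 232 and 223 to 321 and 307 CPM (0.46 ± 0.03, adjusted p = 1.65e-17), and Arid2 from 150 and 156 to 196 and 188 CPM (0.33, adjusted p = 3.38e-10). Brd7, a bromodomain subunit of PBAF, was at 72 and 70.4 CPM and at 79.3 and 73.6 CPM and did not pass (0.10, adjusted p = 0.127). Brd9, which marks non-canonical BAF, had overlapping groups at 17 to 20.2 CPM (0.10, adjusted p = 0.449). Of the 15 BAF members, 9 rose (60%) and 1 fell (6.67%). Over all tested genes these shares were 22.9% and 23.5%, and over the genes both as long and as abundant 46.2% and 26.7%.

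**Figure D2:**
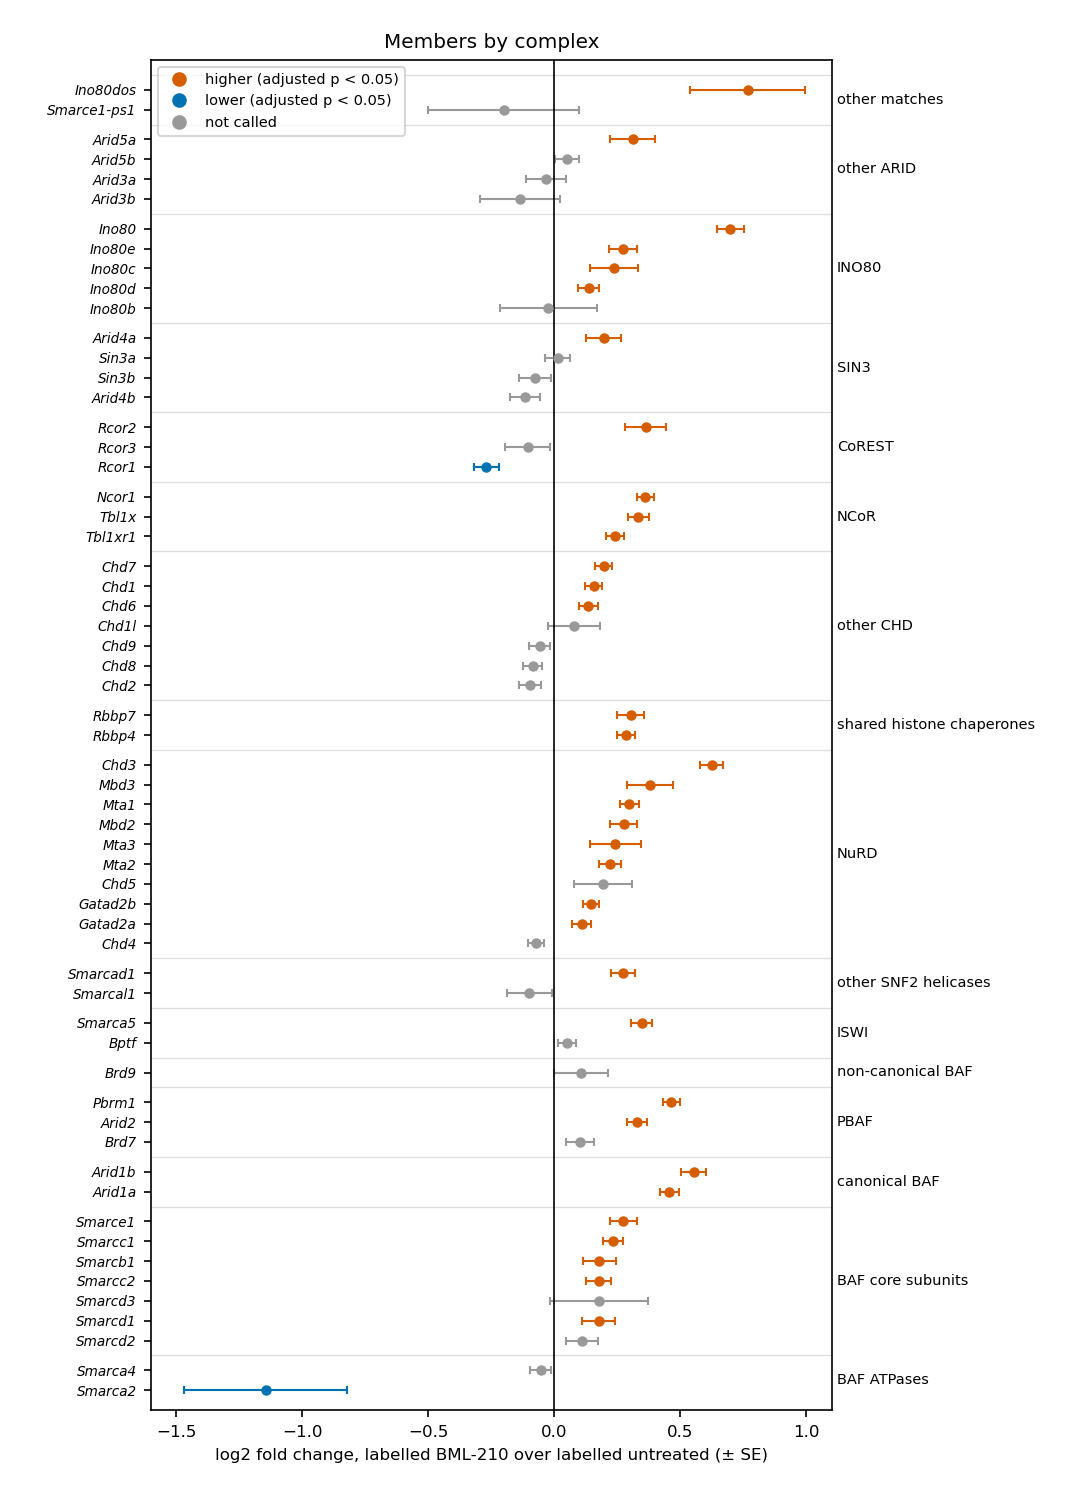
Log2 fold change of the tested members, less 1 that is not reported here, grouped by complex, BML-210 relative to untreated, on the horizontal axis. Points are edgeR estimates, bars are their SE, and colour gives the call. Ino80, Chd3, Arid1b, Pbrm1 and Arid1a lie at 0.46 or above with short bars, and Smarca2 lies at -1.15 with a long one.

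In NuRD most subunits rose, but its ATPases were not called alike. Of its 10 members, 8 rose (80%) and none fell, against 46.2% and 26.7% of the genes both as long and as abundant as the median tested member. Chd3 (ENSMUSG00000018474.17, chromosome 11, 69343273 to 69369406), an ATPase of the complex, was at 92.5 CPM in both libraries labelled untreated and at 137 and 148 in those labelled BML-210, a 1.54-fold rise (log2 fold change 0.62 ± 0.05 SE, edgeR adjusted p = 1.59e-17). Chd4, the other main ATPase, was at 382 and 405 CPM and at 374 in both libraries labelled BML-210. It did not pass (-0.07 ± 0.03, adjusted p = 0.0538), but it was called lower in 5 of 16 alternatives, 4 of them with all libraries (upper-quartile factors, a filter at 1 CPM, the replicate block and the length trend removed). The fifth left out untreated replicate 1 (-0.12, adjusted p = 0.00162), and the adjusted p ran from 0.00162 to 1. Chd5, mostly a gene of neurons and testis, was at 14.9 to 19.2 CPM with overlapping groups (0.19, adjusted p = 0.166).

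Among the MTA subunits, which bind HDAC1 and HDAC2 directly, Mta1 went from 184 and 196 to 228 and 237 CPM (0.30, edgeR adjusted p = 1.37e-09) and Mta2 from 112 and 117 to 135 and 132 CPM (0.22, adjusted p = 3.04e-05). Both had separated groups. Mta3 was called higher (0.24, adjusted p = 0.0458), but the call ended in 8 of 16 alternatives, among them upper-quartile factors, no filter on low counts, DESeq2 and the length trend removed. It also ended without untreated replicate 1 (0.20, adjusted p = 0.199), without untreated replicate 2 (0.27, adjusted p = 0.0569) and when BML-210 replicate 2 was left out (0.13, adjusted p = 0.437), in a range of 0.0196 to 0.678. Of the methyl-CpG-binding proteins that give rise to separate forms of NuRD, Mbd2, which binds methylated DNA, went from 66.4 and 67.7 to 81.2 and 80.9 CPM (0.27, adjusted p = 2.17e-05). Mbd3, which does not bind it appreciably, went from 22.6 and 26.4 to 29.8 and 33.5 CPM (0.38, adjusted p = 0.000376). The linker subunits changed less. Gatad2b was at 391 and 386 CPM and at 434 and 425 (0.14, adjusted p = 6.62e-05). Gatad2a rose by 0.11, a call that ended with upper-quartile factors and in DESeq2. It also ended without either library labelled BML-210, at an adjusted p of 0.0783 and 0.0956 with the log2 fold change still at 0.11, in a range of 0.00465 to 1.

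Rbbp4 and Rbbp7 encode histone-binding WD40 proteins that NuRD and SIN3 share, and that also serve in PRC2 and, for Rbbp4, in the chromatin assembly factor of S phase. Rbbp4 went from 188 and 191 to 227 and 234 CPM (0.28, edgeR adjusted p = 2.26e-09). Rbbp7 went from 69.5 and 69.1 to 87.1 and 84.1 CPM (0.30, adjusted p = 2.70e-06). The rises of both genes were of like size, and the groups did not overlap. Of the exonic bases of Rbbp4, 782 of 8744 overlap Sync and 796 overlap Gm26722 on the other strand, both at under 10 CPM on average.

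**Figure D3:**
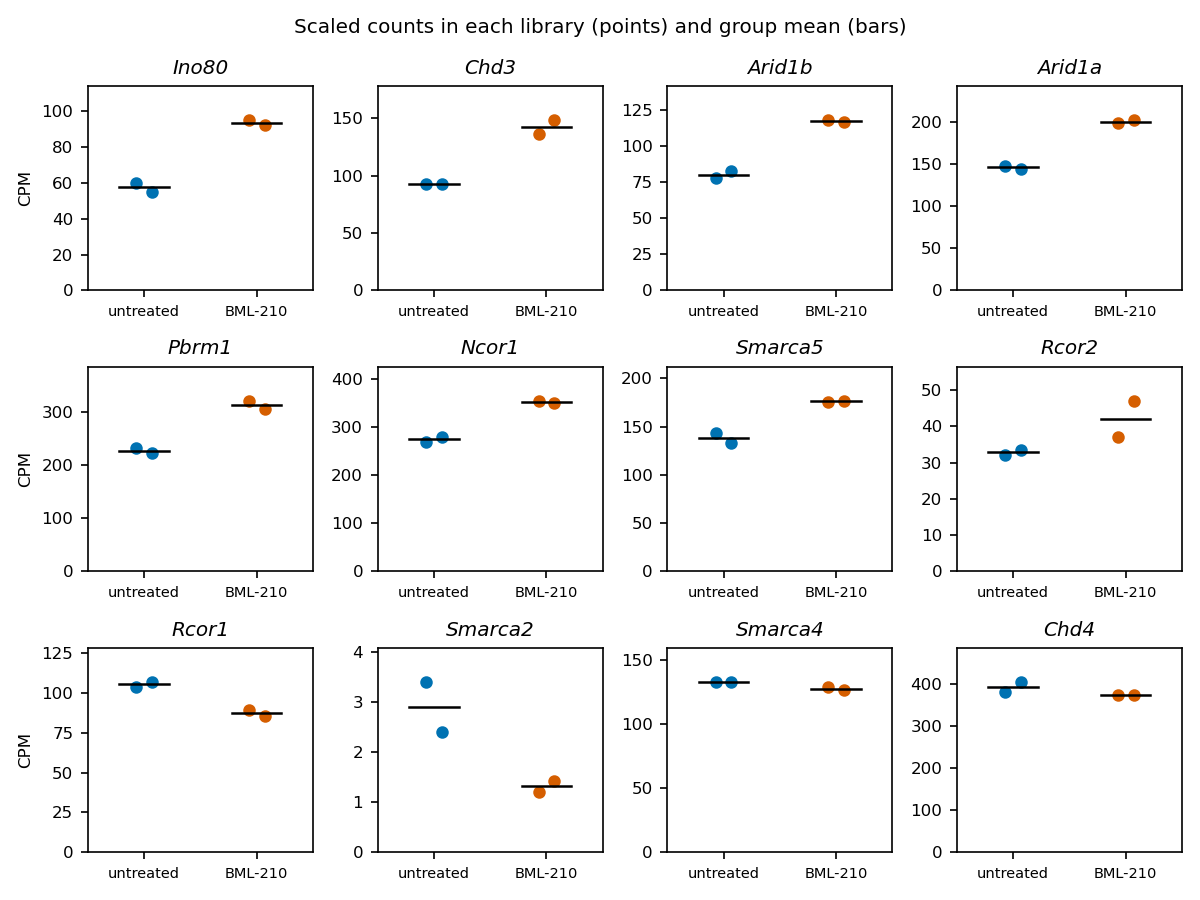
CPM of 12 members in each of the 4 libraries (points) with the group mean (bar), untreated in blue and BML-210 in orange, each vertical axis starting at 0. The groups are apart for Ino80, Chd3, Arid1b, Arid1a, Pbrm1, Ncor1 and Smarca5, while BML-210 replicate 2 of Rcor2, at 47 CPM, stands above replicate 1 at 37 CPM.

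In NCoR, the corepressor of unliganded nuclear receptors, 3 members rose. Ncor1, which encodes the NCoR scaffold, was at 269 and 280 CPM in the libraries labelled untreated and at 354 and 351 in those labelled BML-210 (0.36 ± 0.03 SE, edgeR adjusted p = 2.72e-14). The WD40 subunits of the core complex rose, Tbl1x from 147 and 137 to 174 and 184 CPM (0.33, adjusted p = 1.01e-09) and Tbl1xr1 from 219 and 212 to 255 CPM in both libraries labelled BML-210 (0.24, adjusted p = 5.66e-08). The groups of these 2 genes did not overlap.

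In CoREST, paralogues were called in opposite directions. CoREST proteins bridge HDAC1 or HDAC2 to the histone demethylase LSD1. Rcor1, the founding member, was at 104 and 107 CPM in the libraries labelled untreated and at 88.9 and 85.5 in those labelled BML-210 (-0.27 ± 0.05 SE, edgeR adjusted p = 5.22e-06). Rcor2, its paralogue, known from stem and neural cells, went from 32.1 and 33.5 to 37 and 47 CPM (0.36 ± 0.08, adjusted p = 0.000226). Its rise rested on BML-210 replicate 2: without that library the log2 fold change was 0.18 (adjusted p = 0.153), and the adjusted p ran from 1.51e-07 to 0.153 over the alternatives. Rcor3 was at 26.6 to 27.6 CPM and at 24.5 to 25.8 and did not pass (-0.11, adjusted p = 0.351). In SIN3, 1 of 4 members rose. The scaffold gene Sin3a had overlapping groups at 90.1 to 93.6 CPM (0.01, adjusted p = 0.85), and Sin3b was at 48.9 and 49.6 CPM and at 46.6 and 46.7 (-0.08, adjusted p = 0.347). Of the SIN3 subunits with an ARID domain, Arid4a rose from 41.6 and 37.8 to 46 and 45.2 CPM (0.20, adjusted p = 0.0175). That call ended in DESeq2, without untreated replicate 2 (0.13, adjusted p = 0.215) and when BML-210 replicate 1 was left out (0.18, adjusted p = 0.0957), in a range of 0.00922 to 0.966. Arid4b did not pass (-0.12, adjusted p = 0.0959), but was called lower with upper-quartile factors.

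Ino80 had the largest rise of the protein-coding members. It encodes the ATPase of the INO80 complex, which exchanges the histone variant H2A.Z and works in replication and repair. Ino80 (ENSMUSG00000034154.15, chromosome 2, 119373042 to 119477687) was at 59.9 and 55.1 CPM in the libraries labelled untreated and at 94.9 and 92.1 in those labelled BML-210, a 1.62-fold rise (0.70 ± 0.06 SE, edgeR adjusted p = 1.34e-16). The accessory subunits rose less: Ino80e from 64.1 and 66.9 to 80.4 and 77.6 CPM (0.27, adjusted p = 3.64e-05), Ino80c by 0.24 and Ino80d by 0.14. The call of Ino80c ended with upper-quartile factors, with no filter on low counts and in DESeq2. It also ended without untreated replicate 2 (0.19, adjusted p = 0.192) and without either library labelled BML-210 (0.23 and 0.24, adjusted p = 0.112 and 0.103), in a range of 0.0238 to 0.698. That of Ino80d (adjusted p = 0.00462) ended in DESeq2 and without BML-210 replicate 2 (0.09, adjusted p = 0.224), in a range of 0.00167 to 1. Ino80b was at 4.92 to 6.06 CPM with overlapping groups (-0.02). The antisense gene Ino80dos, from 2.74 and 3.93 to 4.54 and 6.64 CPM, was called higher (0.77 ± 0.23, adjusted p = 0.00416). That call ended in DESeq2, without untreated replicate 1 (0.51, adjusted p = 0.103) and when BML-210 replicate 2 was left out (0.46, adjusted p = 0.21), in a range of 0.000509 to 0.21, and of its 2880 exonic bases 431 overlap Ino80d and 489 overlap Ndufs1 on the other strand. As the use of strand in the counting is not given, reads of Ino80dos and of these far more abundant genes cannot be told apart.

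Among the other remodellers, Smarca5, which encodes the ISWI ATPase SNF2H, was at 144 and 133 CPM in the libraries labelled untreated and at 176 and 177 in those labelled BML-210 (0.35 ± 0.04 SE, edgeR adjusted p = 2.38e-10). The second ISWI ATPase gene, Smarca1, had 1 count in 1 library and none in the other 3, so nearly all of the ISWI ATPase mRNA measured was that of Smarca5. Bptf, the large subunit of the ISWI complex NURF, did not pass (228 to 230 and 232 to 243 CPM, 0.05, adjusted p = 0.256). Smarcad1, a remodeller that acts behind the replication fork, went from 91.6 and 87.7 to 109 and 108 CPM (0.27, adjusted p = 3.05e-06), while Smarcal1, which remodels stalled forks, did not pass (-0.10). Of the 7 CHD genes outside NuRD, 3 rose: Chd7, the gene of CHARGE syndrome, from 245 and 231 to 271 and 274 CPM (0.19, adjusted p = 4.60e-06), Chd1, which binds the histone mark H3K4me3, from 265 and 262 to 300 and 288 CPM (0.16, adjusted p = 0.000109), and Chd6 from 175 and 179 to 194 CPM in both (0.13, adjusted p = 0.00277). Chd2 (-0.10, adjusted p = 0.0652) and Chd8 (-0.09, adjusted p = 0.0521) did not pass. Both were called lower in 5 of 16 alternatives, the same 4 with all libraries as for Chd4. The fifth left out untreated replicate 1 for Chd2 (-0.13, adjusted p = 0.0314, range 0.0149 to 1) and untreated replicate 2 for Chd8 (-0.11, adjusted p = 0.0341, range 0.00841 to 1). Of the 14300 exonic bases of Chd2, 2628 overlap 1810026B05Rik on the same strand, a gene at a mean of 34.6 CPM. Chd9 (-0.06) and Chd1l (0.08) did not pass. Of the DNA-binding ARID genes outside these complexes, only Arid5a rose (22.2 to 24 and 28.4 to 29.1 CPM, 0.31, adjusted p = 0.00333), a call that ended in DESeq2. Arid3a, Arid3b and Arid5b did not pass, and Arid3c, with 18 counts in the untreated libraries together and 2 in the BML-210 libraries together, was too low to test. The pseudogene Smarce1-ps1 did not pass, and Smarca5-ps was too low to test.

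Levels between genes are compared per kilobase of exon. On that scale Mta1 was the highest member in all 4 libraries, at 59.2 and 63.1 CPM per kilobase in those labelled untreated and 73.5 and 76.5 in those labelled BML-210. Chd4 followed, at 47.7 and 50.5 and at 46.6 in both. Gatad2a and Gatad2b had overlapping ranges in the libraries labelled untreated, at 33.8 to 34.2 and 33.7 to 34.2 CPM per kilobase. The lowest tested member was Smarca2, at a mean of 0.204 and 0.0924 CPM per kilobase. Levels within NuRD spanned a wide range, from 1.65 for Chd5 to 61.2 for Mta1 in the libraries labelled untreated.

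**Figure D4:**
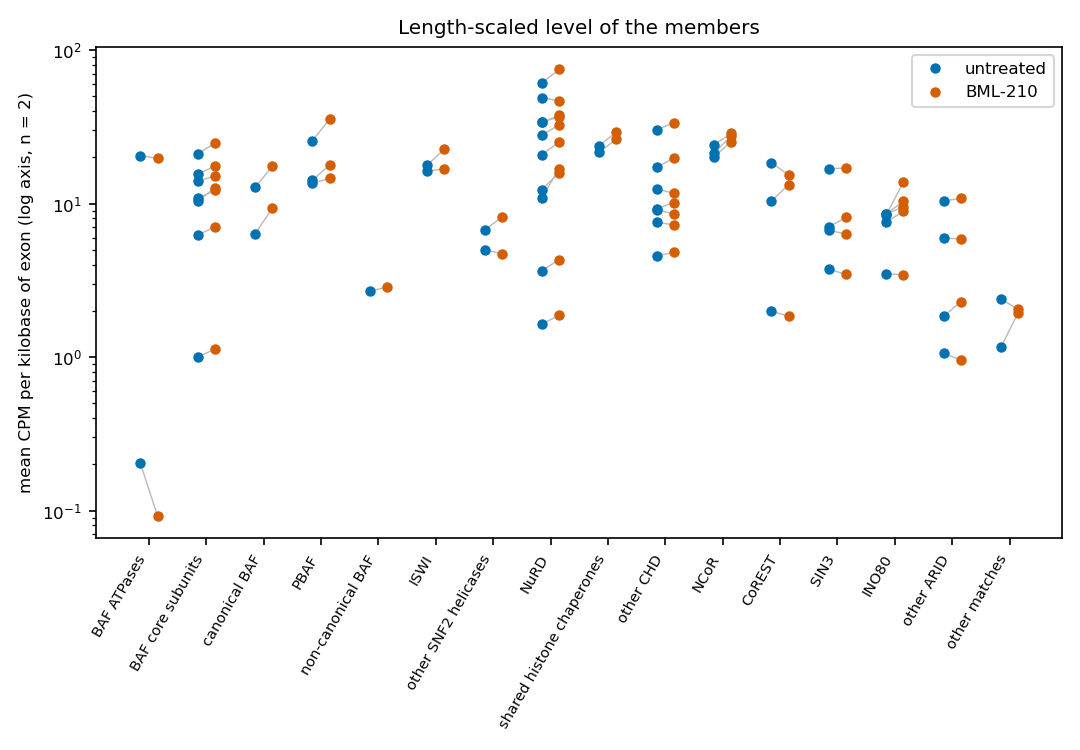
Mean length-scaled level (CPM per kilobase of exon, log axis, n = 2) of the tested members, less 1 that is not reported here, in the libraries labelled untreated (blue) and BML-210 (orange), joined by a line for each gene. Mta1, at 61.2 in the untreated libraries, is the highest in NuRD, and Smarca2, at 0.204 and 0.0924, lies far below all others.

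Paralogues were compared as their share of the length-scaled counts within each library, a measure free of library scaling. Some of them can replace each other in a complex. Others, such as the ARID3 and ARID5 genes or Brd7 and Brd9, are not placed in 1 complex here. These shares are descriptions, since an exact permutation test of 2 against 2 libraries cannot reach 0.05. Chd3 made up 17.3% to 18.2% of the CHD3, CHD4 and CHD5 mRNA in the libraries labelled untreated and 25.1% to 26.5% in those labelled BML-210, while Chd4 went from 79.2% to 79.9% down to 70.4% to 72.3%. Chd4 thus remained the main mRNA of the set in all 4 libraries. In CoREST, Rcor1 went from 59.9% in both libraries labelled untreated to 53.6% and 47.3%, and Rcor2 from 33.4% and 33.9% to 40.2% and 46.8%. The mean log2 ratio of Rcor2 to Rcor1 in BML-210 libraries exceeded that in untreated ones by 0.62, and by 0.42 without BML-210 replicate 2. Arid4a went from 64.4% to 66.2% of the ARID4 pair to 69.3% to 71.0%. None of these ranges overlapped between the groups. The groups did not overlap for 22 of the 32 ratios of paralogues computed. In CPM they did not overlap for 71.3% of all tested genes, so a lack of overlap was common and does not set the paralogues apart. The shares restate the changes of the single genes, so shifts were by construction smaller in sets whose members rose by like amounts. Rbbp4 was 46.4% to 48.1% of its pair over all 4 libraries and Smarcc1 56.7% to 59.1%, with overlapping groups. Gatad2a was at 50.1% in both libraries labelled untreated and at 49.1% and 49.8% in those labelled BML-210, and Mta1 was at 65.7% and 66.1% of the MTA set and at 66.6% and 67.5%, both without overlap.

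**Figure D5:**
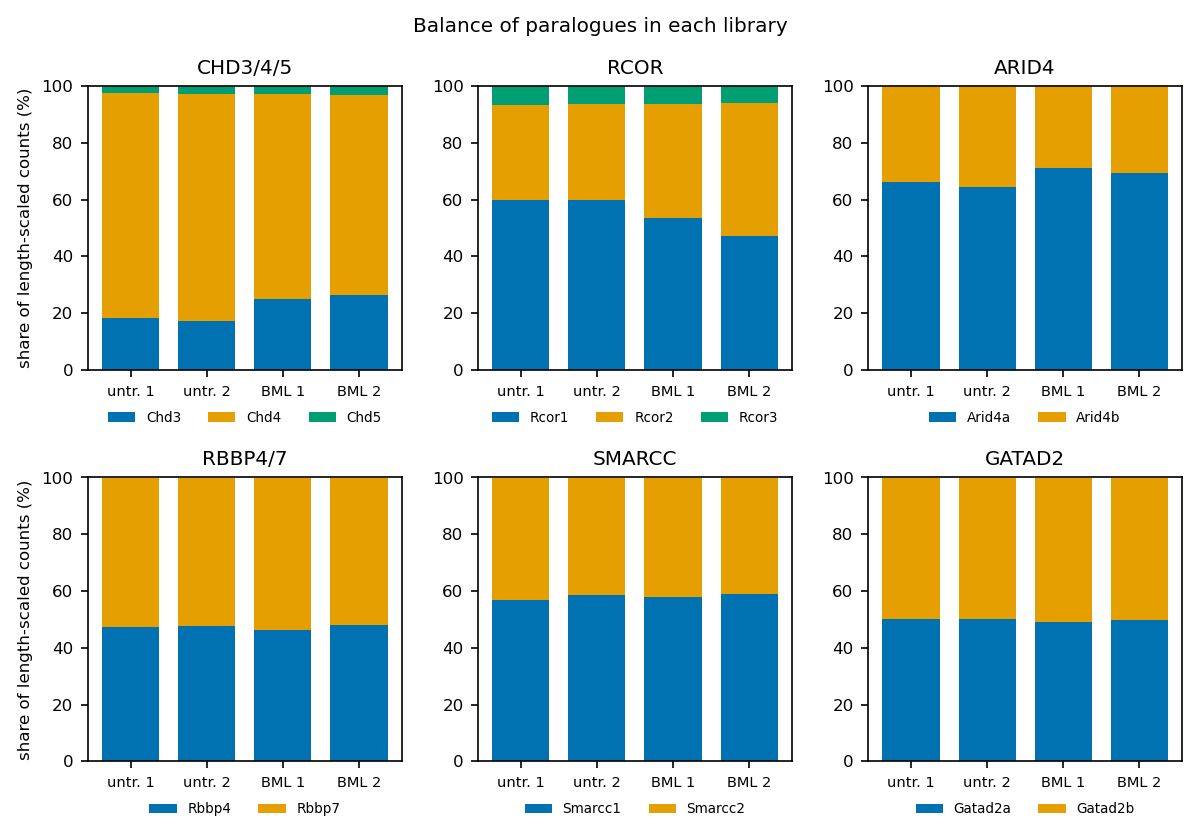
Share of the length-scaled counts (%) that each paralogue takes within its set, in each of the 4 libraries (untr., untreated; BML, BML-210). The share of Chd3 is 17.3% to 18.2% in the untreated libraries and 25.1% to 26.5% in the BML-210 libraries, and that of Gatad2a lies between 49.1% and 50.1% in all 4.

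Partner genes of these complexes that the symbols of the members do not cover were read from lists of known subunits. Of 67 listed partners 66 were found by symbol and 60 were tested. Of these 23 were higher, 11 lower and 26 not called, with a median log2 fold change of 0.09. The share called was thus 56.7%, against 46.4% of all tested genes, 22.9% as higher and 23.5% as lower. It was below the 72.9% of the genes both as long and as abundant as the median tested member. The partners themselves were not matched for length or level. The counts by complex below are to be read beside the same shares, and none was tested against them. None of the deacetylase partners was called higher: Hdac1 was at 81.4 and 85.1 CPM and at 71.7 and 76.5 (-0.17, edgeR adjusted p = 0.00851), while Hdac2 (0.09) and Hdac3 (0.05) did not pass. In BAF, 6 of 12 tested partners rose and 2 fell, with Phf10, a PBAF subunit, from 156 and 142 to 210 and 207 CPM (0.48, adjusted p = 1.77e-15) and Ss18, the subunit fused in synovial sarcoma, from 84.2 and 82.9 to 108 and 110 CPM (0.39, adjusted p = 9.97e-10). In ISWI, 6 of 7 rose and 1 fell, among the former the SMARCA5 partners Baz1b (0.44, adjusted p = 1.04e-13) and Baz1a (0.36, adjusted p = 4.78e-12). In CoREST 1 of 7 rose and 3 fell: Hmg20b, a CoREST subunit with an HMG box, went from 23.4 and 27 to 18.1 and 17.6 CPM (-0.49, adjusted p = 4.70e-05), and Phf21a rose by 0.23. In SIN3 3 of 10 rose and 2 fell, with Phf12 at 0.20 and Morf4l1 at -0.18. In INO80 3 of 9 rose and 1 fell, with Uchl5 at 0.35 and Nfrkb at 0.21. In NuRD Zmynd8 (0.17) rose and in NCoR Gps2 (0.33) rose. Of 9 genes of the related SRCAP and TIP60 remodellers 2 rose, the ATPase genes Ep400 (0.24) and Srcap (0.43), and 1 fell.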

How the data were processed

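RNA of 4 libraries was measured. The authors deposited raw counts per gene, whole numbers with no normalization, with gene symbols, exon coordinates and exonic length per the file headers. Alignment and counting tools named by the submitters' processing notes are STAR 2.5 and featureCounts (Subread 1.5.1), beside edgeR 3.20.8 and build mm10. The sources used here do not give how strand, multi-mapping and overlapping genes were handled. Exons of 28 members overlap another gene, and of these, all tested, 12 were higher and 2 lower. Of the 32 tested members without overlap 23 were higher and 0 lower. Over all tested genes 22.9% were higher and 23.5% lower. The part of the overlaps in these calls was not tested.

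The test used edgeR 4.0.16 under R 4.3.3: filterByExpr, TMM scaling, glmQLFit with robust=TRUE and glmQLFTest on the group alone, with Benjamini-Hochberg adjustment over all 14455 tested genes and a threshold of 0.05. Each SE is approximate, the absolute log2 change divided by the root of the F statistic. CPM use the TMM-scaled library size. Values of 3 counts cover counting error only. Sampling noise did not account for the spread between replicates (chi-square per degree of freedom 2.70 and 1.76). This does not show that the libraries came from separate cultures. Each library was treated as 1 sample. The common coefficient of variation beyond counting noise, as edgeR estimates it, was low, at 2.49%. The steps were tested on simulated data, 2 libraries against 2. Of the 134 calls made there, 13 were of genes set not to change. Of genes set to change by 0.3 on the log2 scale 42.3% were called, and of those set to change by 1, 81.6%. Small changes could thus be missed. Members, gene lists and tests were chosen with earlier results of these data known. Of the complexes, the rule names every tested member (1 is counted but not reported here), with values per library for the 3 with the smallest adjusted p, those called against the majority and paralogues called in opposite directions; values per library of further members were added after their values were seen. Of the partners, it names up to 2 per list with the smallest adjusted p, and of the markers those of highest level. Some markers of low level are named beside these. Alternatives tried: scaling by RLE, by upper quartile or by library size only, other filters, a replicate block, DESeq2 1.42.0, voom from limma 3.58.1, leaving out each library, the likelihood ratio test, a fold threshold of 1.2, genes above 1% of counts left out and removal of a length trend. The ranges of adjusted p given above span all alternatives. They include the fold threshold, which tests for a change beyond 1.2-fold and not for any change.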

Additional observations from a re-analysis of the deposited data

How the results depend on the processing

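No member or list changed direction with a call under the 16 alternatives. The number of members called higher, 35 in the analysis reported, was 25 in DESeq2 and 30 with upper-quartile factors, and 8 when a change beyond 1.2-fold was required. It ran from 27 (without BML-210 replicate 2) to 32 with single libraries left out, which also leaves 1 library in a group that is assumed to vary like the other group. Of the 35, 7 were called in all 16 alternatives (Arid1a, Arid1b, Chd3, Ino80, Ncor1, Pbrm1 and Smarca5) and 17 more in all but the 1.2-fold threshold. The number called lower, 2, was 6 with upper-quartile factors, 5 with a filter at 1 CPM on average, with the replicate block and with the length trend removed, 1 in DESeq2 and 1 with the 1.2-fold threshold, and 2 to 3 with single libraries left out. The added calls with the replicate block are Chd2, Chd4 and Chd8, with small changes. The median log2 fold change of the members, 0.18, was 0.15 with upper-quartile factors and 0.19 with library size only, and 0.15 to 0.17 with single libraries left out. Partners called higher, 23, were 17 in DESeq2 and 8 with the 1.2-fold threshold, and those called lower, 11, were 6 and 2. Replicate numbers were not shown to pair the samples (correlation of deviations 0.01 over the tested genes), and with the replicate block 35 members were higher and 5 lower. The shift of Rcor2 over Rcor1, 0.62, ran from 0.42 to 0.82 with single libraries left out. In all, 2 residual degrees of freedom and shared estimates of spread limit every call, and low counts limit those of Smarca2 and Ino80dos.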
